A study of Mus musculus with 40 samples.

Results

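Chemokines are small secreted proteins that steer leukocyte movement, and their receptors sit on the surface of the cells that respond. The family examined here holds every gene of the deposited count table named as a Ccl, Cxcl, Cx3cl or Xcl ligand, a Ccr, Cxcr, Cx3cr or Xcr receptor or an Ackr atypical receptor, together with Ccrl2, where the 40 libraries held at least 20 counts in all. This gave 56 genes of 23079 identifiers: 19 CC ligands, 13 CXC ligands, 2 ligands of other classes, 17 signalling receptors and 5 atypical receptors. Of the same name pattern, Ccr8 with 8 counts, Ccl1 with 5 and Ccl26 with 0 fell below the limit, and Ccr6 with 23, Cxcr1 with 49 and Cxcl11 with 53 lay just above it. Cxcl11 is annotated as a transcribed pseudogene.

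All libraries came from pregnant mice of the C57BL/6 strain, with no genetic change stated, killed at 18.5 days post coitum. Mice had received intraperitoneal human chorionic gonadotropin (hCG), a hormone of the human placenta that binds the receptor of luteinizing hormone, or phosphate-buffered saline (PBS). Both the cervix and the myometrium, the muscular wall of the uterus, were sequenced, which gives 4 groups of 10 libraries: hCG cervix, PBS cervix, hCG myometrium and PBS myometrium. Neither the dose, nor the time from injection to collection, nor the age of the mice is stated. The design text counts 10 mice per treatment, which implies that the 2 tissues share animals, but the library numbers do not show which libraries do, and p-values treat all libraries as separate.

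Ligands divide by the spacing of their first cysteines into CC and CXC chemokines, with small C and CX3C classes beside them. Signalling receptors act through inhibitory G proteins to direct migration, whereas atypical receptors bind ligands without that signal and mostly scavenge or transport them. In the pregnant uterus and cervix, chemokines are known for guiding monocytes, macrophages and neutrophils around labour and after birth.

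Library totals ran from 5449239 to 25028360 counts, so a gene without a count could still be present at up to 0.12 to 0.551 CPM (counts normalised to library size; 3 counts of the total, counting error only). By depth the cervix libraries formed 2 classes: hCG 1 to 6 with PBS 1 to 4 held at least 16613261 counts each (deeper), and the other 10 at most 11602678 (shallower). Smooth muscle genes summed to 11785 to 28252 CPM in myometrium and squamous epithelium genes to 9919 to 58655 CPM in PBS cervix. The hCG cervix libraries held 1068 to 16057 CPM of the squamous list, of which 2 of 8 genes were lower than in PBS cervix. All 5 uroplakin genes of bladder lining were called higher in hCG cervix, with sums of 2305 CPM in hCG cervix library 5, 626 in library 3 and 188 in library R3 against at most 61.3 in PBS cervix. Adipocyte genes summed to 1118 CPM in hCG cervix library 3 and skeletal muscle genes to 5369 CPM in hCG cervix library 1. Lars2, taken here as a sign of RNA quality, held 3.51% to 17.5% of counts in PBS cervix libraries 5 to 8 and was itself lower after hCG (-6.50 ± 1.41). Counts of cervix calls are also given without hCG libraries 1, 3 and 5 and without PBS libraries 5 to 8. In bulk tissue, fewer cells of a type and less RNA per cell cannot be told apart.

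Per kilobase of exon, the most abundant member in all 4 groups was Ccl21d, a ligand of Ccr7 made by lymphatic vessels, with a median of 76.3 CPM per kb in PBS cervix and 322 in PBS myometrium. Its gene has near-identical copies, so its count is uncertain. In PBS cervix, Cxcl15 followed at 52.8 CPM per kb, then Ccl8 at 46.2 and the mucosal ligand Cxcl17 at 39.8, 3 levels whose libraries overlapped. In PBS myometrium the next members were Ccl8 at 94.2, Cxcl17 at 89.3 and the macrophage product Ccl6 at 67.9 CPM per kb. The highest receptor per kilobase was the atypical receptor Ackr3, which removes Cxcl12, at 15.8 in cervix and 36.2 in myometrium of PBS mice. Among signalling receptors, the monocyte receptor Ccr2 led in PBS myometrium at 10.6 and in PBS cervix at 5.73 CPM per kb.

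The first question was how hCG changed the family in cervix. Of the 56 members, 38 passed the filter on low counts, and 9 of them (23.7%) were called, all higher after hCG: the receptors Cxcr4, Ccr1 and Ccr2, the atypical receptor Ccrl2, the CXC ligands Cxcl10, Cxcl12 and Cxcl14 and the CC ligands Ccl6 and Ccl9. In the same fit, 8.91% of all 14932 genes tested were called, and 4.74% were called higher. The median log2 fold change was 0.31 over the tested members and 0.01 over all genes tested. A call is an adjusted p under 0.05 from edgeR's quasi-likelihood test with Benjamini-Hochberg adjustment over all genes tested, and fold changes are log2 values ± SE. In none of the tested members did the groups separate completely, whereas 0.0201% of all genes lay wholly higher and 0.0134% wholly lower after hCG.

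Cxcr4, the receptor of Cxcl12 on leukocytes and many other cells, had the smallest p of the family. Its level in the hCG libraries was 11.3 CPM in library 1, 7.62 in library 2, 10.9 in library 3, 11 in library 4, 3.14 in library 5, 16.05 in library 6, 3.19 in library 7, 0.565 in library 9, 2.83 in library 10 and 2.11 in library R3. The PBS libraries ran from 0.642 to 2.14 CPM (median 1.18). Thus 8 of 10 hCG libraries lay above every PBS library, while library 9 lay below every one. The log2 fold change was 2.54 ± 0.44 (adjusted p = 0.0263). Among the deeper libraries, 3.14 to 16.05 CPM in 6 hCG libraries stood against 1.07 to 1.21 in 4 PBS libraries. Among the shallower ones, 0.565 to 3.19 CPM in 4 hCG libraries overlapped with 0.642 to 2.14 in 6 PBS libraries, and the log2 fold change there was 0.80 (adjusted p = 0.799), which was not called.

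Ccr1, a receptor of monocytes and neutrophils for Ccl3, Ccl5, Ccl6 and Ccl9, ranged over 2.83 to 35.5 CPM (median 14.8) after hCG and 1.03 to 9.33 CPM (median 5.46) after PBS. Its 3 lowest hCG libraries, among them library 10, lay within the PBS range, and 7 lay above it. The log2 fold change was 1.61 ± 0.40 (adjusted p = 0.0294). It was 1.86 in the deeper libraries alone (adjusted p = 0.0457). In the shallower ones alone it was 0.54 (adjusted p = 0.847) and with depth class as a term 1.23 (adjusted p = 0.0581), neither of them called. Ccr2, the receptor that brings monocytes out of the blood toward Ccl2 and Ccl7, had 36 to 98.6 CPM (median 67.1) after hCG and 14.1 to 62.1 CPM (median 38.7) after PBS. Of the hCG libraries, 5 lay above the highest PBS library, and the lowest PBS value came from library 7. Ccr2 rose by 0.77 ± 0.23 (adjusted p = 0.0408). The genes of Ccr1, Ccr2 and Ccr3 lie near each other on chromosome 9 (GRCm38). Ccr3, the eotaxin receptor of eosinophils, had a log2 fold change of 0.54 ± 0.51 and was not called (adjusted p = 0.508).

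Ccrl2, an atypical receptor that holds the attractant chemerin at the cell surface, had the most hCG libraries above the PBS range among the members called. The hCG libraries held 2.26 to 8.1 CPM (median 4.9) and the PBS libraries 1.63 to 3.32 CPM (median 1.95). All hCG libraries but library 9 exceeded the highest PBS library. This was a log2 fold change of 1.14 ± 0.22 (adjusted p = 0.0263), and the shallower libraries alone gave 0.999 and the deeper ones alone 1.16, neither of them called.

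Cxcl10, an interferon-induced ligand that attracts T and NK cells through Cxcr3, was low in both groups, with 0.226 to 9.43 CPM (median 1.91) after hCG and 0.105 to 0.759 CPM (median 0.371) after PBS. The highest library, R3, was a shallow one. Of the hCG libraries, 7 lay above all PBS libraries and libraries 5, 9 and 10 within their range. The log2 fold change was 2.78 ± 0.56 (adjusted p = 0.0263). The gene overlaps Art3, and the strand used for counting is not given, so reads of both cannot be told apart. Cxcl9, a second interferon-induced ligand, and Cxcr3, the receptor of both, were too low for the test: Cxcl9 ran over 0.141 to 3.47 CPM (median 0.669) after hCG and 0 to 0.896 CPM (median 0.465) after PBS, and Cxcr3 over 0.22 to 1.48 CPM (median 0.555) and 0 to 1.33 CPM (median 0.504).

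Cxcl12, the stromal ligand of Cxcr4, had 52 to 175 CPM (median 75.4) after hCG and 31.5 to 74.1 CPM (median 61.9) after PBS. In this case 6 hCG libraries lay above the PBS range and the other 4 within it. The log2 fold change was 0.73 ± 0.23 (adjusted p = 0.0474). Its largest values came from libraries 5 and 3, which held uroplakin and adipocyte RNA, and without libraries 1, 3 and 5 the value was 0.39 (adjusted p = 0.275), not a call. Cxcl14, a ligand of epithelia and stroma, had 17.7 to 88.8 CPM (median 26.1) and 7.02 to 25.9 CPM (median 15.1). It too was highest in library 5, and 5 hCG libraries lay above the PBS range. It rose by 1.16 ± 0.30 (adjusted p = 0.0303), and without libraries 1, 3 and 5 the value was 0.71 (adjusted p = 0.128), which was not called.

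Ccl6 and Ccl9 are mouse CC ligands of macrophages and other myeloid cells that act on Ccr1, and their genes lie within 20.2 kb on chromosome 11. Ccl6 ran over 43.6 to 175 CPM (median 74.8) after hCG and 16.2 to 62.2 CPM (median 43.5) after PBS. All 10 hCG libraries lay above the PBS median and 7 above the whole PBS range. Ccl9 ran over 26.3 to 122 CPM (median 41.2) and 5.93 to 40.3 CPM (median 24.2). Its hCG values also all lay above the PBS median, with library 3 far above the others. The log2 fold change was 0.95 ± 0.25 for Ccl6 (adjusted p = 0.0321) and 1.02 ± 0.29 for Ccl9 (adjusted p = 0.0369). For Ccl9, leaving out libraries 1, 3 and 5 reduced it to 0.64 (adjusted p = 0.185), and the call was lost.

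**Figure D1:**
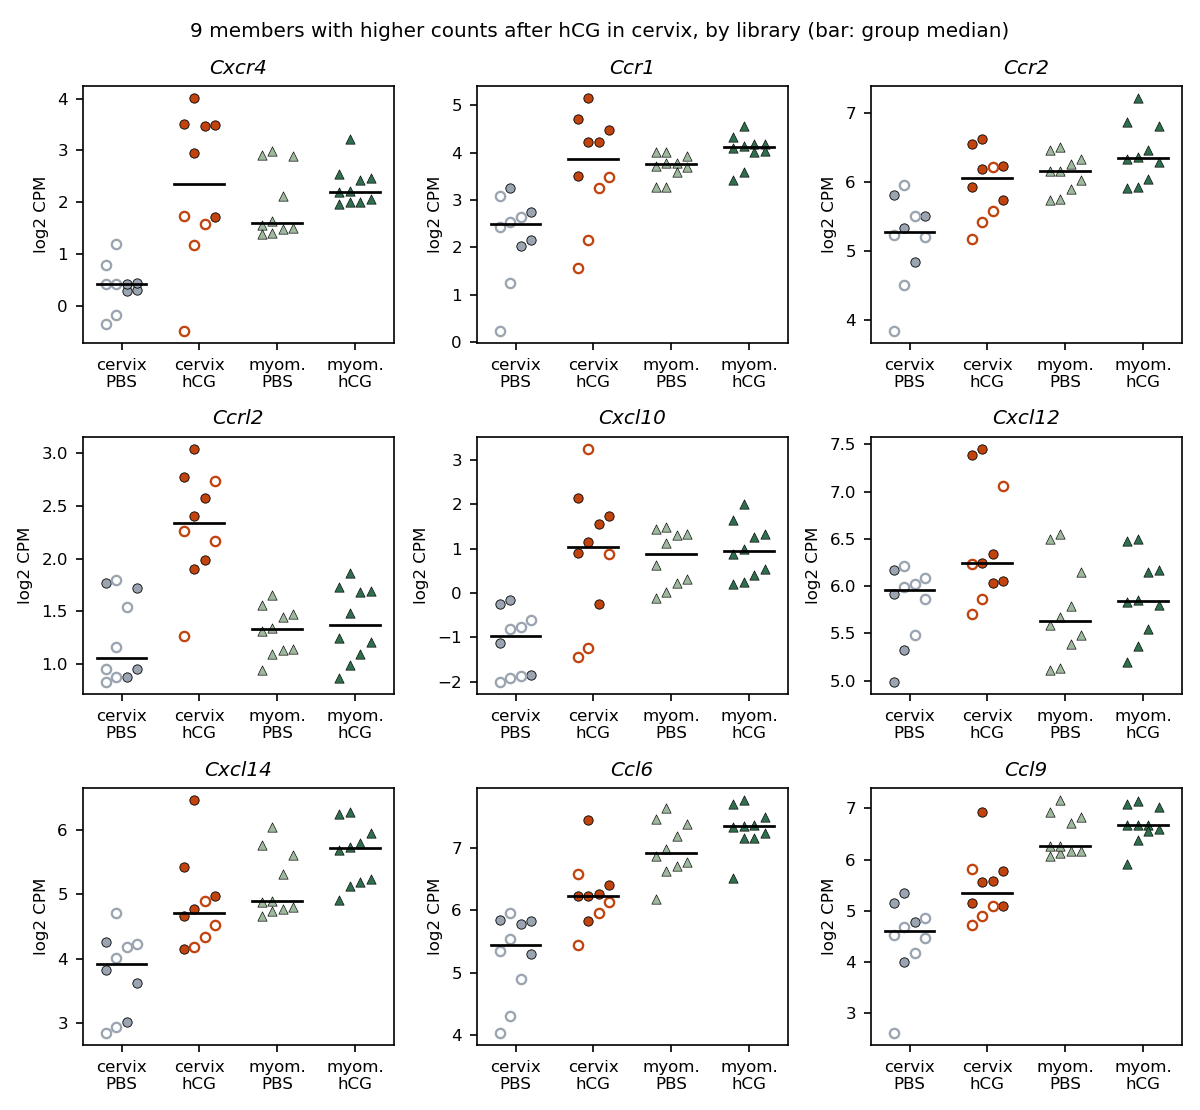
Each panel shows 1 of the 9 members called higher in cervix, with log2 CPM (prior count 2) of every library in the 4 groups of 10 and a bar at the group median. Filled circles are the deeper and open circles the shallower cervix libraries, triangles are myometrium libraries, and every panel shows some overlap of hCG with PBS cervix.

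The cervix calls depended on single libraries. No member was called without PBS library 4, 7 or 8, when 0.00678%, 0.00656% and 0.0131% of all genes were called. Without hCG library 3, 1 member was called (0.0544% of all genes), without hCG library 5, 4 (2.75%), and without hCG library 2, 5 (5.71%). Leaving out each of the others gave 6 to 10. No member was called without hCG libraries 1, 3 and 5 together (0% of all genes), where 12 members had an unadjusted p under 0.05 (19.2% of all genes), nor without PBS libraries 5 to 8 (0.0064%), where 15 did (27.3%). The deeper libraries alone gave 3 calls (1.53%), of which only Cxcr4 and Ccr1 were among the 9, and the shallower ones alone 0 (0%). In the shallower ones 4 of 34 members had an unadjusted p under 0.05, beside 776 of all 14394 genes tested. Depth class as a term left 4, namely Cxcr4, Cxcl10, Ccl6 and Ccrl2 (3.4%), and limma voom 4 (6.48%). A fit without a filter called 13 (5.15%), 1 fit of all 40 libraries 13 (21.9%) and a fit with label numbers as a block 8 (7.71%). In each alternative that tested them, the log2 fold change of the 9 stayed above 0.

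Several members were high in the same hCG cervix libraries. Libraries 1, 2, 3, 4 and 6 held the 5 highest values of 6 members: the receptors Cxcr4, Ccr1 and Cxcr2 and the ligands Cxcl2, Cxcl3 and Cxcl5. These 5 are all among the deeper libraries. Cxcl2, Cxcl3 and Cxcl5, with Cxcl1, attract neutrophils through Cxcr2. Cxcl5 measured 110.5 to 499.7 CPM in those 5 libraries and at most 31.25 in the other 5, Cxcl3 16.7 to 48.6 against at most 8.02, and Cxcl2 3.6 to 15.7 against at most 1.56. The same 5 libraries were also the highest for the neutrophil genes S100a8 (23.7 to 93.3 CPM, at most 6.46 in the others), S100a9 and Csf3r and for Il1b, which encodes an inflammatory cytokine (21.4 to 60.1, at most 11.5). The other matched neutrophil genes, Retnlg, Mmp8, Ngp, Camp, Ltf, Cd177 and Il1r2, did not have their 5 highest values in exactly these libraries. Such a choice of libraries follows the values, so no test was made of it. S100a8, S100a9, Csf3r and Il1b were picked from the lists by the same rule. The share of all genes with these 5 libraries highest was not counted. Whether 6 of 56 members, or 5 of the 38 tested, is unusual is therefore not known.

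Over the groups as labelled, Cxcl5 had 0.124 to 499.7 CPM (median 70.8) after hCG and 12.2 to 152 CPM (median 24.3) after PBS. Both extremes of its range lay in the hCG group, and the log2 fold change of 1.70 ± 0.75 was not called (adjusted p = 0.137). Cxcl3 had 0 to 48.6 CPM (median 12.3) and 3.15 to 21.4 CPM (median 7.5), with a log2 fold change of 0.86 ± 0.59 (adjusted p = 0.346). Their receptor Cxcr2 had 1.49 to 19 CPM (median 8.25) and 1.97 to 12 CPM (median 5.89), with 0.54 ± 0.42 (adjusted p = 0.402). For all of these the groups overlapped. Cxcl2 and Cxcl1 were too low for the filter, with 0 to 15.7 CPM (median 2.58) against 0 to 1.3 CPM (median 0.269) for Cxcl2 and 0.0827 to 1.76 CPM (median 1.09) against 0 to 0.858 CPM (median 0.379) for Cxcl1. DESeq2 was fitted to every member and applied its own filter before adjustment. It called 14 members, all higher: the 9 named above and Cxcl2, Ccl3, Ccl4, Cxcl9 and Ccl24. Of all 20352 genes with a count it called 11.8% in either direction, 6.07% higher and 5.72% lower. Genes without an adjusted p counted there as not called, so this share and edgeR's 8.91% of filtered genes have unlike bases.

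**Figure D2:**
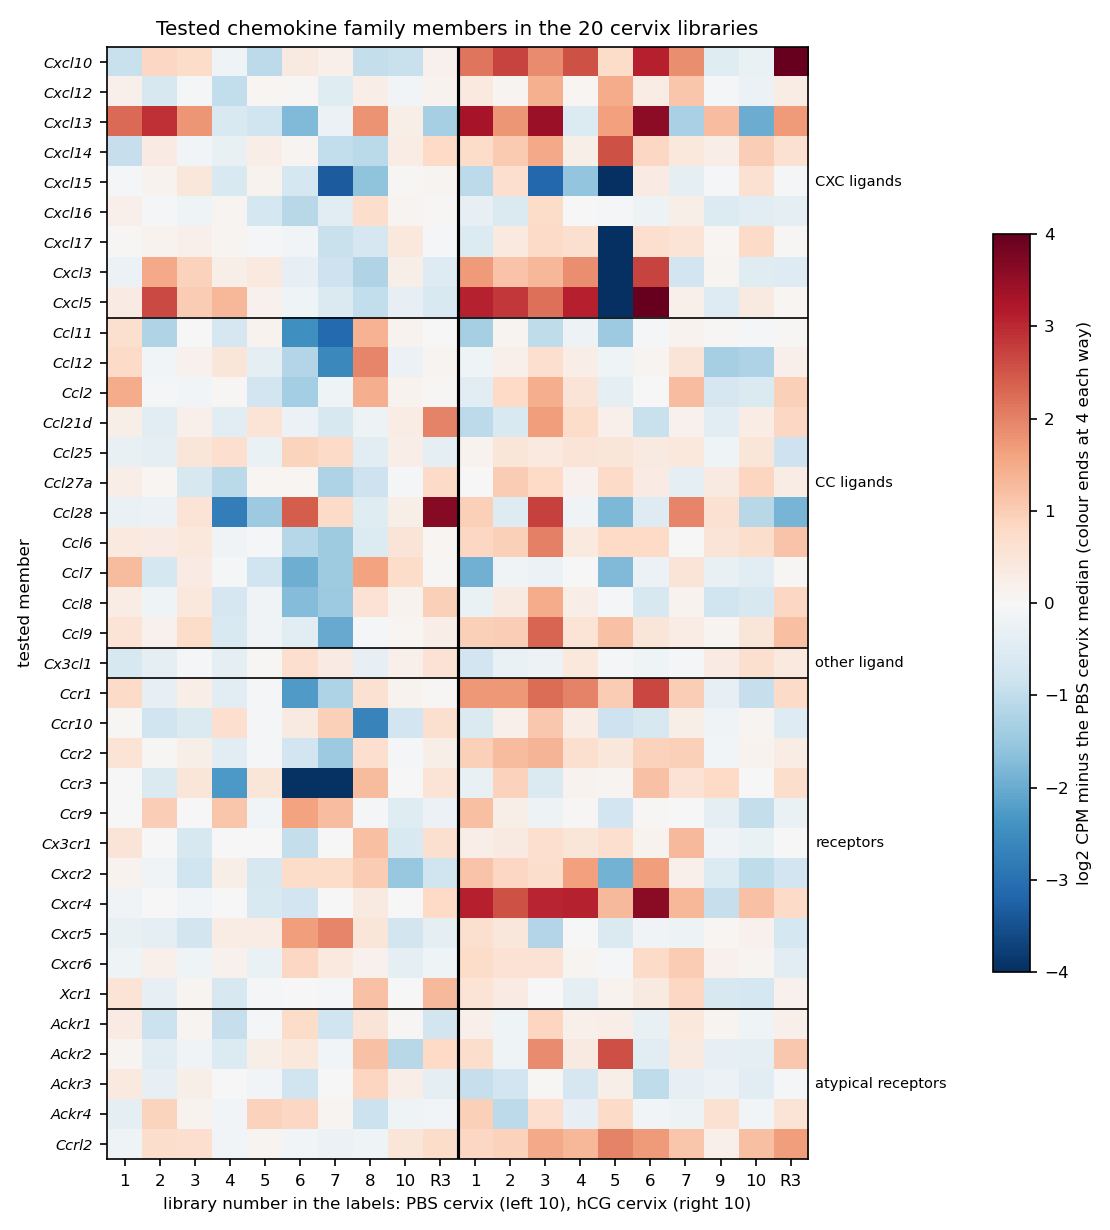
Rows are tested members grouped by role and columns the 20 cervix libraries, PBS on the left and hCG on the right; colour is log2 CPM minus the median of PBS cervix. Red runs through hCG libraries 1, 2, 3, 4 and 6 for Cxcl5, Cxcl3, Cxcr4 and Ccr1, and hCG library 5 is dark blue for Cxcl15, Cxcl17, Cxcl3 and Cxcl5.

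Cxcl5, Cxcl3, Cxcl15, Cxcl1 and Cxcl2 lie in this order within 146.6 kb of chromosome 5 (90759298 to 90905938, GRCm38), and Cxcl10 lies farther along the same chromosome (92346638 to 92348889). The 250 bases before the RefSeq start of 4 of these genes are shown because Cxcl2 and Cxcl3 were high in the same hCG cervices, Cxcl1 lies between them, and Cxcl10 had the largest fold change of the 9 called members. Cxcl15, which also lies between Cxcl3 and Cxcl2, is not shown. For Cxcl5, which was high in the same hCG cervices, no such sequence was at hand. Capitals mark the letters GGAATTTCC on either strand, the core of many NF-kB sites, and in Cxcl10 also GAAA, any 2 bases and GAAA, the core of the interferon-stimulated response element. Sequences are RefSeq's for GRCm38.p6, read 5′ to 3′ toward the gene: Cxcl3 at chr5:90785851-90786100, + strand, Cxcl1 at chr5:90890995-90891244, + strand, Cxcl2 at chr5:90903649-90903898, + strand and Cxcl10 at chr5:92348890-92349139, - strand.

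Cxcl3: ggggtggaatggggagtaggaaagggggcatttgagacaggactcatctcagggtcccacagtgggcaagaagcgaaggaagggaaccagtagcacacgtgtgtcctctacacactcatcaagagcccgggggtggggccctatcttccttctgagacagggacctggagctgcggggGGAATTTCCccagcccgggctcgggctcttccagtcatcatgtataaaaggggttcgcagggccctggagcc
Cxcl1: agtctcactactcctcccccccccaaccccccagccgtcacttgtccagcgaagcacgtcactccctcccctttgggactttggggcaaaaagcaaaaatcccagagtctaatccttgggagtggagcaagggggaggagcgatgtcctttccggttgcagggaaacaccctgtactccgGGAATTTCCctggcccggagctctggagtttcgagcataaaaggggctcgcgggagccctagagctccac
Cxcl2: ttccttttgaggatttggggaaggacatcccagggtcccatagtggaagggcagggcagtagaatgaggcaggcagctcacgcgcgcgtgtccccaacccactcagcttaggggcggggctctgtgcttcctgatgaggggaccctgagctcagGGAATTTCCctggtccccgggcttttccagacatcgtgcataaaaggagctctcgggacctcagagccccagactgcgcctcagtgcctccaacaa
Cxcl10: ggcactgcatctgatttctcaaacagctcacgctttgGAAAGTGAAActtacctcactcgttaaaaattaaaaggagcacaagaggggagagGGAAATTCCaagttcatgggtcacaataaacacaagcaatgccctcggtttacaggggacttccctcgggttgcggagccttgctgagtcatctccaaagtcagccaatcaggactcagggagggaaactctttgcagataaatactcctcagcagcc

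GGAATTTCC begins 72 bases before the start of Cxcl3, 70 before that of Cxcl1 and 96 before that of Cxcl2, and in Cxcl10 it lies on the opposite strand from 158 to 150 bases before the start. The response element core of Cxcl10 begins 213 bases before the start. Of 32851 windows of this length before RefSeq starts, 0.286% hold GGAATTTCC and 2.98% hold the response element core, on either strand. Of the 42 members with a window, 5 hold the first (Ccr3 besides the 4 shown) and 3 the second (Ccl19, Cxcl10 and Cxcl14). A match describes the letters and is not evidence of binding.

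The library labelled hCG cervix 5 stood apart in its ligands. Cxcl17 was at 0.0413 CPM in it, against at least 16.3 in each of the other 19 cervix libraries, Cxcl15 at 0.455 against at least 11, Cxcl5 at 0.124 against at least 12.2, and Cxcl3 had no count against at least 3.15. In the same library Ltf, a secretory product, was at 0.248 CPM against at least 1380, and Krt5, a basal keratin, at 212 against at least 452. Conversely, its Ackr2 (8.55 CPM), Ccl24 (4.71), Ccrl2 (8.1), Cxcl12 (175) and Cxcl14 (88.8) were the highest of all cervix libraries. These values came with 25224 CPM of smooth muscle genes and the uroplakin sum given above. Without this library 4 members were called, namely Cxcr4 (2.64), Ccrl2 (1.05), Ccr1 (1.67) and Ccl6 (0.98), and Cxcl10 no longer passed the filter.

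Some leukocyte markers also differed in cervix. Their counts stand beside 4.74% of all genes called higher and 4.17% called lower in the same fit. That fit kept only 1, 1 and 2 called genes in all without PBS library 4, 7 or 8. Of 10 matched neutrophil genes, 6 were tested and 3 were called higher in hCG cervix: S100a9 at 4.17 ± 0.93, S100a8 at 3.79 ± 0.88 and Csf3r at 2.34 ± 0.53. Ngp and Camp, granule proteins of immature neutrophils, were without a count in 6 and 5 of the 10 hCG cervix libraries. The summed list ran from 7.69 to 4890 CPM after hCG and from 1579 to 5270 after PBS, nearly all of it Ltf, which epithelium of the reproductive tract also makes. Of 13 monocyte and macrophage genes, Cd163 at 1.55 ± 0.44, Cd14 at 1.25 ± 0.31 and Ly6c2 at 0.92 ± 0.27 were higher and 1 gene was lower, with list sums of 362 to 1335 and 222 to 713 CPM. Cd163 was highest in hCG cervix library 5, at 118.4 CPM, against at most 79.47 in the other 19 cervix libraries. Of 6 dendritic cell genes tested, Itgax alone was higher, at 1.07 ± 0.27. None of the tested T cell, NK cell or B cell genes was called in cervix. The part of cell numbers in the chemokine results was not tested.

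Among ligands not called in cervix, Ccl2 and Ccl7, which draw Ccr2-bearing monocytes, had log2 fold changes of 0.18 ± 0.38 and -0.58 ± 0.39. Ccl2 ran over 0.904 to 4.48 CPM (median 1.91) after hCG and 0.514 to 4.55 CPM (median 1.54) after PBS, and Ccl7 over 2.5 to 14.1 CPM (median 8.26) and 2.44 to 29.9 CPM (median 9.8). For both genes every hCG library lay within the PBS range, and for Ccl7 PBS libraries 1, 8 and 10 lay above every hCG library. Ccl3 and Ccl4, macrophage inflammatory proteins whose genes overlap, were too low for the filter. Ccl3 ran over 0.1 to 6.16 CPM (median 1.45) and 0.039 to 0.858 CPM (median 0.269), Ccl4 over 0 to 3.64 CPM (median 0.75) and 0 to 0.858 CPM (median 0.0195), and the T cell attractant Ccl5 over 0 to 1.65 CPM (median 0.779) and 0.0894 to 0.789 CPM (median 0.21). Of the ligands made at surfaces, Cxcl16 had 15.2 to 38 CPM (median 18.7) and 10.4 to 36.7 CPM (median 22.6) and Cx3cl1 7.03 to 18.8 CPM (median 11.6) and 7.68 to 19.3 CPM (median 12.1). Both overlapped between the groups, with log2 fold changes of -0.03 ± 0.20 and 0.01 ± 0.19. Cxcr6, the receptor of Cxcl16, had 3.41 to 9.34 CPM (median 6.09) and 3.55 to 8.35 CPM (median 4.62), and Cx3cr1, that of Cx3cl1, 5.51 to 16.3 CPM (median 8.3) and 3.34 to 15.5 CPM (median 6.62). Their log2 fold changes were 0.34 ± 0.20 and 0.29 ± 0.25.

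Atypical receptors other than Ccrl2 did not reach a call. Ackr3 had 26.2 to 62.8 CPM (median 40.8) after hCG and 30.4 to 96.6 CPM (median 53) after PBS, with 8 of 10 hCG libraries below the PBS median and a log2 fold change of -0.43 ± 0.19 (adjusted p = 0.14). Ackr2, which degrades inflammatory CC ligands, had 0.934 to 8.55 CPM (median 1.71) and 0.526 to 3.15 CPM (median 1.31), with 0.86 ± 0.42 (adjusted p = 0.171). Ackr1 of venules had 1.92 to 4.44 CPM (median 2.76) and 1.21 to 4.11 CPM (median 2.4), and Ackr4, which clears Ccl19 and Ccl21, 1.76 to 7.55 CPM (median 4.62) and 2.06 to 7.35 CPM (median 3.84), with log2 fold changes of 0.27 ± 0.24 and 0.07 ± 0.27. All 4 overlapped between groups. Of the axis that brings dendritic cells to lymph nodes, Ccl19 ran over 0 to 2.56 CPM (median 0.864) and 0 to 2.57 CPM (median 0.505) and Ccr7 over 0 to 0.761 CPM (median 0.26) and 0 to 0.263 CPM (median 0), both under the filter. The 29 tested members that were not called spanned log2 fold changes from -0.60 (Cxcr5, the B cell receptor of Cxcl13) to 1.70 (Cxcl5), and the smallest adjusted p among them was 0.0914 for Ccl27a.

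In myometrium the same comparison gave no call. Of 35 tested members, 0 were called by edgeR's quasi-likelihood test, and 2 of 14517 genes (0.0138%) were called, 1 higher and 1 lower (0.00689% each). The groups separated completely in no member, and in 0.00689% of all genes in each direction. At an unadjusted p under 0.05 stood 6 of 35 members, against 15.5% of all genes tested. The median log2 fold change was 0.13 over the members and 0.01 over all genes. Ackr3 had the smallest p: it measured 63.1 to 119 CPM (median 88.6) after hCG and 86.9 to 158 CPM (median 121) after PBS. All 10 hCG libraries lay below the PBS median, and 5 lay below the whole PBS range. The log2 fold change was -0.43 ± 0.12 (adjusted p = 0.105), while DESeq2, which called 1.97% of all genes, called it lower at -0.44 (adjusted p = 0.0369). The other 5 were Ccr1 at 0.36 ± 0.13, Ccr9, a receptor of Ccl25, at -0.69 ± 0.26, Cxcl14 at 0.46 ± 0.21, Ccr2 at 0.33 ± 0.15 and the mucosal ligand Ccl28 at 0.49 ± 0.23, with adjusted p from 0.173 to 0.311.

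The members called in cervix can be set beside their values in myometrium. Cxcr4 ran over 3.78 to 9.14 CPM (median 4.45) after hCG and 2.46 to 7.75 CPM (median 2.88) after PBS, with all 10 hCG libraries above the PBS median and 1 above the whole PBS range. Ccr1 ran over 10.6 to 23.5 CPM (median 17.2) and 9.51 to 15.9 CPM (median 13.3), and Ccr2 over 60.4 to 149.8 CPM (median 81.3) and 53 to 91 CPM (median 71.6). Of Ccr1, 8 hCG libraries lay above the highest PBS library, although the difference of medians was small. Ccrl2 ran over 1.68 to 3.51 CPM (median 2.44) and 1.78 to 3.01 CPM (median 2.37), Cxcl10 over 1.02 to 3.9 CPM (median 1.78) and 0.783 to 2.65 CPM (median 1.73), and Cxcl12 over 36.4 to 90.4 CPM (median 57.1) and 34.5 to 93.3 CPM (median 49.5). For Ccrl2, 4 hCG libraries lay above the PBS range and 1 below it, for Cxcl10 2 lay above it, and for Cxcl12 all lay within it. The log2 fold changes of these 3 were 0.09 ± 0.17, 0.20 ± 0.29 and 0.13 ± 0.20. Cxcl14 ran over 30.0 to 77.9 CPM (median 52.6) and 25.3 to 66.1 CPM (median 29.6), Ccl6 over 91.9 to 219 CPM (median 163) and 72.8 to 199 CPM (median 122), and Ccl9 over 60.2 to 141 CPM (median 102) and 67.2 to 144 CPM (median 77.1). For Ccl6 and Ccl9 9 of 10 hCG libraries lay above the PBS median, with log2 fold changes of 0.30 ± 0.16 and 0.19 ± 0.16.

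The remaining ligands and receptors of myometrium were not called either. Ccl2 had 3.8 to 10.8 CPM (median 5.82) after hCG and 4.14 to 10.7 CPM (median 6.04) after PBS, and Ccl7 3.8 to 9.04 CPM (median 6.22) and 3.2 to 9.95 CPM (median 5.52). Cxcl16 had 25 to 41.7 CPM (median 35.7) and 23.1 to 64.9 CPM (median 42.5) and Cxcr6 2.78 to 6.07 CPM (median 4.03) and 2.53 to 5.05 CPM (median 3.92). All 10 hCG libraries of Cxcl16 lay below its PBS median, within the PBS range. Cx3cl1 had 8.59 to 25.4 CPM (median 13) and 12.2 to 25.5 CPM (median 14.3) and Cx3cr1 5.59 to 20.5 CPM (median 10.2) and 5.92 to 19.8 CPM (median 9.53). Of Cx3cl1, 8 of 10 hCG libraries lay below the PBS median and 3 of them below the PBS range. Ackr1 had 0.795 to 3.9 CPM (median 1.61) and 0.947 to 3.6 CPM (median 2.4), Ackr2 3.38 to 13.7 CPM (median 7.58) and 3.87 to 11.7 CPM (median 5.77) and Ackr4 3.43 to 10.1 CPM (median 7.25) and 3.34 to 9.08 CPM (median 6.92). Of Ackr1, 9 of 10 hCG libraries lay below the PBS median. Cxcl3 and Cxcl15 had a median of 0 CPM in both myometrium groups. For 10 other members low here, PBS myometrium medians ran from 0.164 CPM for Ccr7 to 1.37 for Cxcl5, with Ccl3, Ccl4, Ccl5, Ccl19, Cxcl1, Cxcl2, Cxcl9 and Cxcr3 between, and their hCG medians from 0.241 for Ccl4 to 0.892 for Cxcl5.

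Whether the response differed between the tissues was tested as an interaction over all 40 libraries. Of 46 tested members, Cxcr4 alone was called, and 0.352% of all 15624 genes tested were (0.128% larger and 0.224% smaller in cervix). Its response was larger in cervix by 2.28 ± 0.51 on the log2 scale (adjusted p = 0.04). The next members missed the threshold: Cxcl10 at 2.57 ± 0.63 (adjusted p = 0.0504), Ccrl2 at 1.04 ± 0.27 (0.0582), Cxcl2 at 3.90 ± 1.02 (0.0582) and Ccl3 at 2.79 ± 0.79 (0.0684). All 5 were larger in cervix. Of the 46 members, 10 had an unadjusted p under 0.05, against 20% of all genes tested. The Cxcr4 call was lost without cervix hCG libraries 1, 3 and 5 (2.16, adjusted p = 0.0789; 0.0128% of all genes called), with limma voom (1.57, adjusted p = 0.0856), which called Cxcl10 and Ccrl2 instead (3.65%), and with label numbers as a block (0%). All 5 were called by DESeq2 (2.77%) and at a threshold of 0.1 (4.74%), and 5 members without cervix PBS libraries 5 to 8 (7.04%). Without cervix hCG library 5, Cxcr4 and Cxcl10 were called (0.205%). For the other 8 members called in cervix, a difference between the tissues was not shown.

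Larger contrasts separated the tissues themselves. Between PBS cervix and PBS myometrium, 23 of 33 tested members were called, against 54% of all 14545 genes tested, 6 higher in cervix (28% of all genes) and 17 higher in myometrium (26.1% of all genes lower in cervix). The median log2 fold change, cervix over myometrium, was -0.55 over the members and 0.04 over all genes. Groups did not overlap for 3 members higher in cervix and 7 lower, beside 7.01% and 7.38% of all genes. A block of label numbers gave 25 calls (56%). Macrophage and monocyte genes were also mostly lower in cervix, 11 of 13, with sums of 222 to 713 CPM against 895 to 1842 CPM in PBS myometrium. All 5 lymphatic vessel genes were lower, and their part in the difference was not tested.

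Cxcl15, Cxcl3 and Cxcl5 of the chromosome 5 cluster were the cervical ligands. Cxcl15, known as lungkine and made by epithelia, had 11 to 152 CPM (median 112) in PBS cervix and no count in 7 of 10 PBS myometrium libraries, the highest of which held 0.37 CPM. Over the groups, 14391 counts stood against 9, a ratio per total count of 1435 (95% exact interval 756 to 3139, counting error only). Cxcl3 had 3.15 to 21.4 CPM (median 7.5), 1402 counts against 1, a ratio of 1258 (interval 225.5 to 49733). Cxcl5 had 12.2 to 152 CPM (median 24.3) in cervix and 0.222 to 3.71 CPM (median 1.37) in myometrium, a log2 fold change of 4.81 ± 0.54 (adjusted p = 1.34e-07). For these 3 every cervix library lay above every myometrium library. Cxcl1 and Cxcl2 of the same cluster did not follow: they were under the filter, with 0 to 0.858 CPM (median 0.379) in cervix against 0.176 to 2.71 CPM (median 1.04) in myometrium for Cxcl1 and 0 to 1.3 CPM (median 0.269) against 0.143 to 1.85 CPM (median 0.362) for Cxcl2.

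**Figure D3:**
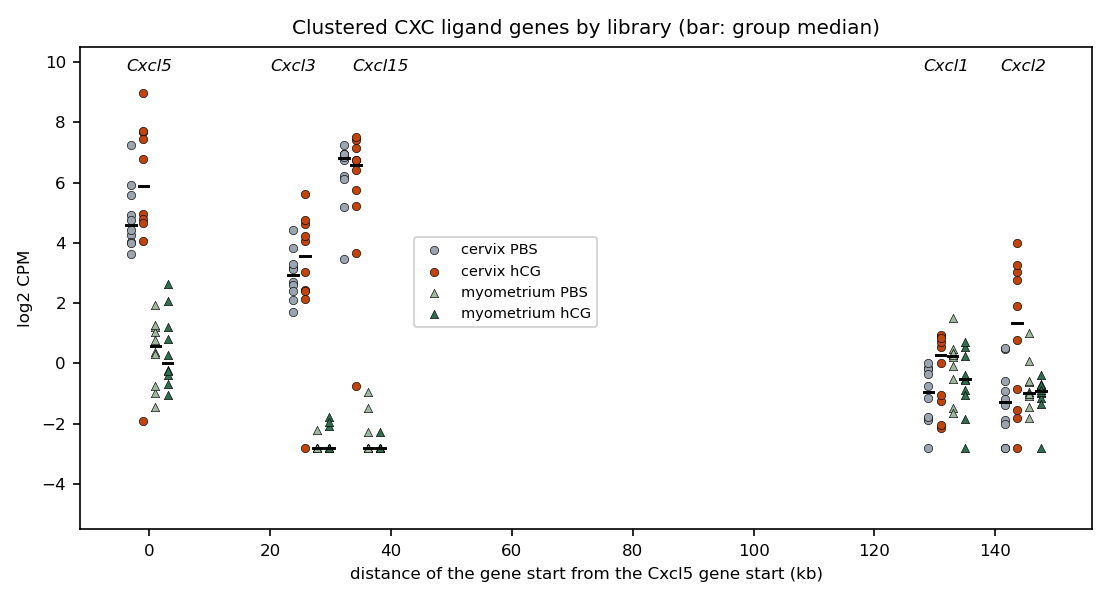
The horizontal axis is the distance of each gene start from that of Cxcl5 in kb, and points are log2 CPM (prior count 2) of single libraries in the 4 groups with a bar at the median; values without a count lie near -2.8. Cxcl5, Cxcl3 and Cxcl15 are high in cervix and near the floor or low in myometrium, except in hCG cervix library 5, while Cxcl1 and Cxcl2 are low in both tissues of PBS mice.

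Ccl11, the eotaxin that draws eosinophils through Ccr3, had 4.45 to 103 CPM (median 39.1) in PBS cervix and 1.49 to 6.68 CPM (median 2.36) in PBS myometrium, overlapping through 1 low cervix library, number 7. Its log2 fold change was 3.82 ± 0.45 (adjusted p = 2.9e-07). Ccr9 had 1.45 to 6.55 CPM (median 2.06) against 0.665 to 2.04 CPM (median 1.18), at 1.35 ± 0.31 (adjusted p = 0.000928), and Ccl7 2.44 to 29.9 CPM (median 9.8) against 3.2 to 9.95 CPM (median 5.52), at 0.997 ± 0.36 (adjusted p = 0.024). The call of Ccl7 was lost without PBS cervix library 1 (adjusted p = 0.0593) or 8 (0.0671). Ccl7 and Ccl11 lie side by side on chromosome 11 with Ccl2, Ccl12 and Ccl8, 5 genes within 81.2 kb. Their neighbours differed from them: Ccl2 was lower in cervix, with 0.514 to 4.55 CPM (median 1.54) against 4.14 to 10.7 CPM (median 6.04) and -1.67 ± 0.31 (adjusted p = 9.01e-05), as was Ccl8 at -0.95 ± 0.28 (adjusted p = 0.00624), and Ccl12 was not called at -0.50 ± 0.40. Without the libraries with over 1% of counts in Lars2, Ccl8 was at -0.67 and no longer called (adjusted p = 0.0513).

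On the myometrial side, Ackr2 had 0.526 to 3.15 CPM (median 1.31) in PBS cervix against 3.87 to 11.7 CPM (median 5.77) in PBS myometrium, with no overlap and a log2 fold change of -2.07 ± 0.28 (adjusted p = 1.7e-06). Ccl9 had 5.93 to 40.3 CPM (median 24.2) against 67.2 to 144 CPM (median 77.1) at -1.91 ± 0.24 (adjusted p = 6.03e-07). Both genes separated the tissues completely, as did Ccl6 at -1.63 ± 0.23, Ccr1 at -1.29 ± 0.25, Cxcl17 at -1.27 ± 0.17 and Cxcr4 at -1.80 ± 0.28. Cxcr4 measured 0.642 to 2.14 CPM (median 1.18) against 2.46 to 7.75 CPM (median 2.88) (adjusted p = 1.34e-05). Ccl25, the ligand of Ccr9, had 0.847 to 2.31 CPM (median 1.2) against 2.14 to 10.3 CPM (median 4.26) at -1.87 ± 0.28 (adjusted p = 7.86e-06), opposite in direction to its receptor. Ccl21d had 42 to 262 CPM (median 66.4) against 206 to 468 CPM (median 280.2), overlapping through cervix library R3, at -1.78 ± 0.28 (adjusted p = 1.79e-05). Ackr4, which clears Ccl21, was lower in cervix by a smaller step, -0.55 ± 0.22 (adjusted p = 0.0377). This call was lost in 11 of 31 alternatives (adjusted p up to 0.0691), each of which left out 1 library: cervix PBS 1, 3, 4, 7, 8, 10 or R3, or myometrium PBS 1, 3, 6 or R3.

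Receptor and ligand did not always differ together. Ackr3 was lower in cervix, at -1.10 ± 0.16 (adjusted p = 7.26e-06), with 30.4 to 96.6 CPM (median 53) against 86.9 to 158 CPM (median 121), while its ligand Cxcl12 was not called, at 0.04 ± 0.19, with medians of 61.9 and 49.5 CPM. Cxcl16 was lower in cervix at -0.94 ± 0.19 (adjusted p = 0.000263), while Cxcr6, its receptor on T and NK cells, was not called, at 0.41 ± 0.19 (adjusted p = 0.0637). Ccr2 was lower at -0.87 ± 0.19 and Cxcl14 at -1.35 ± 0.24 (adjusted p = 0.000618 and 6.24e-05). Both Cx3cl1 and Cx3cr1 missed the threshold. Ccrl2 differed by -0.01 ± 0.18 and Ackr1 by 0.05 ± 0.29, with intervals from -0.37 to 0.34 and from -0.51 to 0.61. Cxcl13, the B cell attractant, was under the filter: 896 counts in PBS cervix stood against 34 in PBS myometrium, a ratio of 23.65 (95% exact interval 16.8 to 34.4, counting error only).

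**Figure D4:**
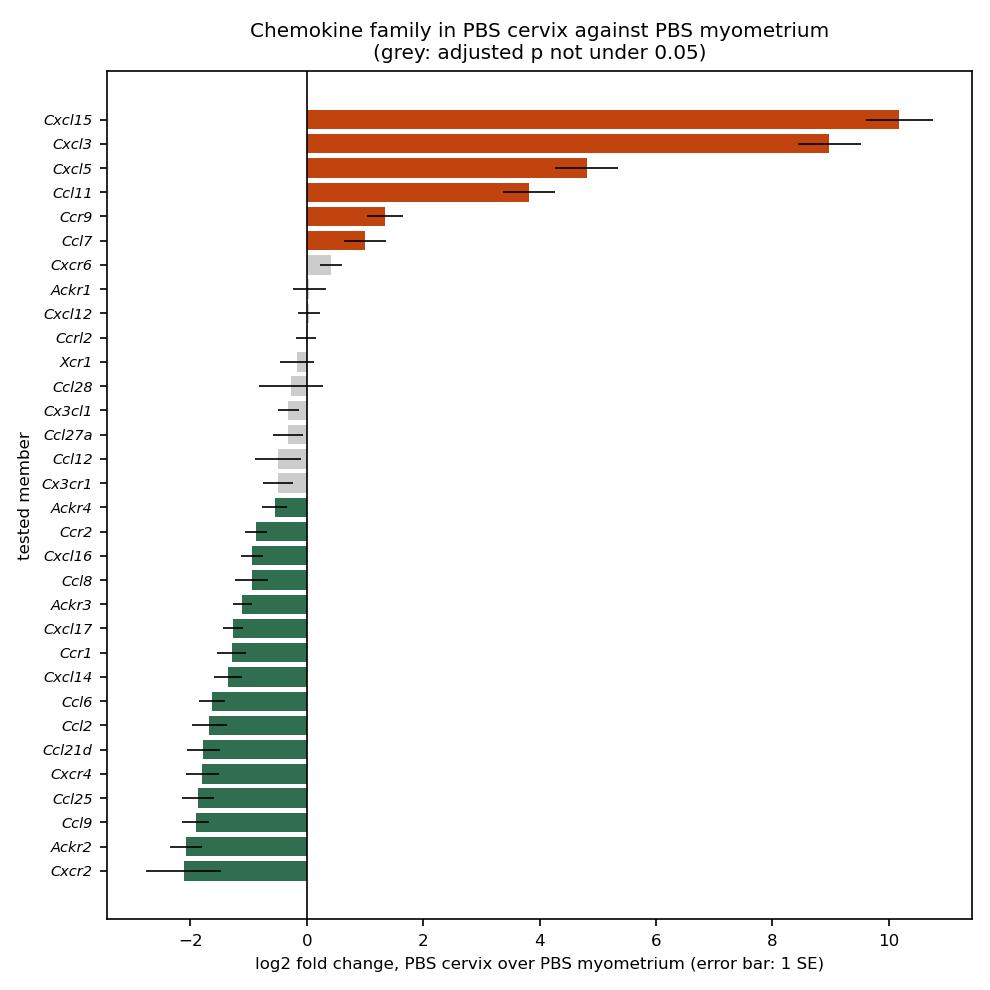
Bars are the log2 fold changes of members tested between PBS cervix and PBS myometrium, with 1 SE, above 0 where cervix was higher; grey bars did not pass an adjusted p of 0.05. Cxcl15 and Cxcl3 reach 10.18 and 8.98 and depend on the prior count, since myometrium held almost no counts, and the greater part of the called members lie on the myometrial side.

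Cxcr2 had the lowest fold change of all, -2.11 ± 0.64 (adjusted p = 0.00844), but its values in myometrium were uneven. It ran over 2.03 to 134 CPM (median 10.1) in PBS and 1.72 to 106 CPM (median 7.1) in hCG myometrium, against 1.97 to 12 CPM (median 5.89) in PBS cervix. The 4 highest libraries were PBS 4 at 133.7, hCG 10 at 105.5, hCG 5 at 79.5 and PBS 8 at 76.1 CPM. In these, 6 yolk sac genes summed to 19368, 30797, 14496 and 11847 CPM. Libraries PBS R3 and hCG 3, with yolk sac sums of 12343 and 10564 CPM, had 14.3 and 8.63 CPM of Cxcr2, so the values did not always go together. The 8 myometrium libraries with over 5000 CPM of yolk sac genes had a median of 52.7 CPM of Cxcr2 and the other 12 a median of 5.54. Of the neutrophil genes, S100a8 had medians of 1.68 and 0.955 CPM, S100a9 of 1.34 and 1.18 and Csf3r of 3.56 and 4.73 in the same libraries. Ccl17, a ligand of Ccr4, had 0.586 and 0.0613 CPM. Without PBS myometrium libraries 4, 8 and R3, the tissue difference of Cxcr2 was -0.29 (adjusted p = 0.557) and not called, while 26 members were (50.6% of all genes). Without PBS library 4 alone it was -1.31 (adjusted p = 0.0434), and limma voom gave -0.86 (adjusted p = 0.23, not called). The part of yolk sac RNA was not tested further.

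**Figure D5:**
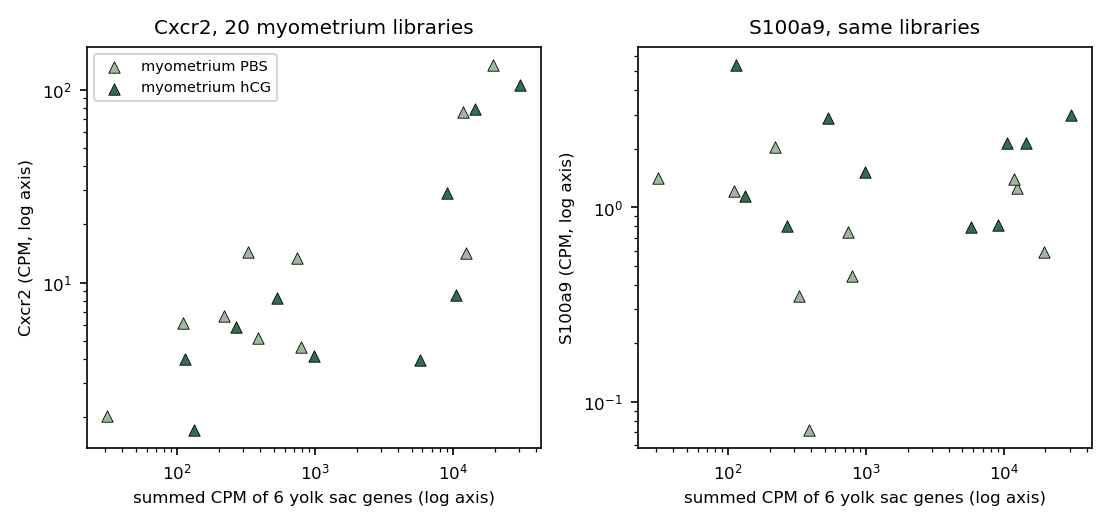
Each triangle is 1 of the 20 myometrium libraries, with the summed CPM of Afp, Apoa1, Ttr, Apoa2, Apoa4 and Apob on the horizontal and CPM of Cxcr2 (left) or S100a9 (right) on the vertical log axis. The 4 libraries with over 70 CPM of Cxcr2 have at least 11847 CPM of yolk sac genes, and S100a9 shows no such rise.

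Other members were near the limit of detection. Ccl20, which attracts Ccr6-bearing cells, was at most 0.824 CPM in hCG cervix but reached 6.51 in PBS myometrium library R3 and 4.2 in library R4. Ccl22, a ligand of Ccr4 made by dendritic cells and macrophages, had 0.283 to 1.01 CPM (median 0.475) in hCG cervix and 0.0447 to 0.257 CPM (median 0.126) in PBS cervix. Every one of its 10 hCG libraries lay above every PBS library, at few counts. The lowest hCG value, in library 10, and the highest PBS value, in library 6, lay under the 3-count levels there, 0.454 and 0.38 CPM. Ccl22 was under the filter, and the fit without a filter called it at 1.95 (adjusted p = 0.0317). Separation was counted only over genes that passed the filter, where 0.0201% lay wholly higher. Ccl24 had medians of 0.829 and 0.479 CPM. Ccr4, Ccr6, Cxcr1 and Xcl1 stayed under 1.18 CPM or at that value in every library. Cxcr5 and Xcr1, the latter a receptor of cross-presenting dendritic cells, had medians of at most 0.759 and 1.27 CPM in the 4 groups. In cervix 18 members were under the filter, in myometrium 21 and in the tissue comparison 23, and they were left out of these 3 tests.

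Genes that act with the family were read from lists of 4 kinds, whose counts stand beside 4.74% of all genes called higher and 4.17% lower in cervix. Without PBS library 4, 7 or 8, only 1, 1 and 2 genes of the whole table were called. Of 27 genes of receptor signalling, all tested, 2 were higher and 2 lower in hCG cervix: the tyrosine kinase Fgr at 1.37 ± 0.36 (adjusted p = 0.0326) and the receptor kinase Grk3 at 0.46 ± 0.12 rose, and the G protein subunit Gnb1 at -0.35 ± 0.08 and the kinase Grk2 at -0.54 ± 0.16 fell. Among 15 cytokines that induce chemokines, 6 were tested and Il1b rose by 3.53 ± 0.64 (adjusted p = 0.0263). It was also called in the difference between tissues, at 3.10 ± 0.70 (adjusted p = 0.041). Of 11 genes that process or present chemokines, 10 were tested: the protease Mmp9 rose by 1.35 ± 0.40, and the heparan sulfate carrier Sdc1 (-0.91 ± 0.22) and the sulfating enzyme Ndst1 (-0.50 ± 0.14) fell. Of 14 leukocyte adhesion genes, 12 were tested and 3 rose, among them the integrin subunit Itga4 by 0.78 ± 0.21 and the endothelial ligand Vcam1 by 1.21 ± 0.36. Vcam1 and Grk3 were highest in hCG cervix library 5, at 77.3 and 34.1 CPM, against at most 31.75 and 27.98 in the other 19 cervix libraries. Median log2 fold changes of the 4 lists were 0.31, 0.33, -0.08 and 0.54, beside 0.01 over all genes. In myometrium edgeR called 0 of the 54 genes of these lists that were tested, and 2 had an unadjusted p under 0.05 (15.5% of all genes), the signalling genes Pik3r5 and Rgs1.

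Between PBS cervix and PBS myometrium, 17 genes of the signalling list were lower and 4 higher in cervix of 27 tested, beside 26.1% and 28% of all genes, among them the kinase Lyn at -1.21 ± 0.12 and the migration regulator Dock2 at -1.57 ± 0.19. Of the cytokines, Il33, an alarmin of epithelium and stroma, was higher in cervix at 5.05 ± 0.22, Csf3 was higher at 1.33 ± 0.21, and Il1a was lower at -2.13 ± 0.37. Dpp4, a protease that trims chemokines, was lower at -2.45 ± 0.19, and Sdc1 was higher at 3.54 ± 0.20. Adhesion genes were lower in 5 cases and higher in 2 of 12 tested, near the 54% of all genes called, Icam2 at -1.95 ± 0.22 and the integrin subunit Itgb2 at -1.59 ± 0.21 among the lower.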

How the data were processed

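Total RNA libraries were made with a TruSeq stranded kit, per the labels' protocols. What the authors deposited is a single table of gene counts, whole numbers without normalization, for 40 libraries. TopHat2 and GRCm38 (mm10) are named in the submitters' processing notes; no source used here names the counting tool, annotation or strand setting. Of 23079 identifiers, 23008 matched RefSeq (GRCm38.p6); the 71 others, with 0.197% of counts, stayed in the tests. Of the members, 11 overlap another protein-coding gene, among them Cxcl10, Cxcl16, Ackr1, Ackr4, Cxcr6 and the pair Ccl3 and Ccl4, whose reads cannot be told apart without strand.

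Counts passed filterByExpr, were scaled by TMM and entered the quasi-likelihood test of edgeR 4.0.16 (R 4.3.3), checked on simulated data, with Benjamini-Hochberg adjustment over all genes tested and a threshold of 0.05. Each comparison used the libraries of its own groups. CPM use TMM factors over 40 libraries, and log2 CPM a prior count of 2. Exon lengths (GENCODE M21) were found for 55 of 56 members. No 2 libraries of a group agreed within sampling noise (chi-square per gene at least 11). The members and the marker and pathway lists were chosen with earlier results of these data known. Named in full are called members, the 6 tissue differences farthest from 0 in each direction where mean log2 CPM reached 1, and a panel of ligands and receptors; Ccl21a of the panel is not analysed here, and a few results under these rules are not reported here. Of the lists, at most 4 called genes are named. Other genes were named after their values were seen. Alternatives were DESeq2 1.42.0, limma 3.58.1 voom with quality weights, other scaling factors (RLE, upper quartile), no filter or 1 CPM in at least 10 libraries, a threshold of 0.1, a replicate block, 1 fit of all libraries, a depth term, depth classes and libraries left out.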

Additional observations from a re-analysis of the deposited data

Results flagged for a closer look

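Within groups of 10 libraries, 1 library lay far from the others (by the gap to its neighbour against the whole range) in 10 of 108 sets of values (9.26%), where chance alone flags about 1 in 20. These sets cover 36 members, each in the groups where its mean reached 1 CPM, judged on log2 CPM. In hCG cervix, library 5 was lowest for Cxcl15 (0.455 CPM), Cxcl3 (0 CPM) and Cxcl5 (0.124 CPM), library R3 was lowest for Ccl25 (0.602 CPM), and library 3 was highest for Ccl9 (122.1 CPM). In PBS cervix, library 7 was lowest for Ccl9 (5.93 CPM). In hCG myometrium, library 9 was lowest for Ackr4 (3.43 CPM), and library 5 was lowest for Ccl6 (91.9 CPM) and highest for Cxcr4 (9.14 CPM). In PBS myometrium, library 8 was lowest for Ackr4 (3.34 CPM).

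The response of Cxcr4 to hCG differed between the tissues by 2.28 on the log2 scale, cervix minus myometrium, in a test of that difference (edgeR's quasi-likelihood test, adjusted p = 0.0400). This call was lost with limma voom (adjusted p = 0.0856) and with label numbers as a block (0.0826). It was also lost without cervix hCG libraries 1, 3 and 5 (0.0789). No fit of this difference took depth class into account.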

How the results depend on the processing

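In cervix the number of called members went from 9 to 14 with DESeq2, 13 without a filter and 13 in 1 fit of all 40 libraries. It was 4 with voom and 4 with depth class as a term. The deeper libraries alone gave 3, of which only Cxcr4 and Ccr1 were among the 9. The number was 0 in the shallower alone, without hCG libraries 1, 3 and 5 or without PBS libraries 5 to 8. Leaving out 1 library gave 0 to 10 in cervix, 0 to 0 in myometrium and 21 to 25 in the tissue comparison. In myometrium DESeq2 called 1 member. For the difference of responses, 1 became 5 at a threshold of 0.1, with DESeq2 and without cervix PBS libraries 5 to 8 (an alternative added after seeing the data, as are those on hCG cervix libraries there and on yolk sac libraries), 2 with voom, 2 without cervix hCG library 5, and 0 without cervix hCG libraries 1, 3 and 5. Whether label numbers pair the libraries was not settled (correlations of deviations from -0.25 to 0.57). Libraries correlated best with their own number in 2 of 9 pairs between cervix groups and 2 of 8 between myometrium groups. Between tissues this held in 3 of 9 pairs for PBS and 3 of 9 for hCG. Label numbers as a replicate block gave 8 members in cervix, 0 in myometrium, 25 in the tissue comparison and 0 in the difference of responses, where Cxcr4 was at 2.02 (adjusted p = 0.0826). All log2 fold changes recomputed kept their sign. Cxcl10 passed the filter in 21 of 34 alternatives in cervix. Over its alternatives Cxcr4 ran from 0.80 to 3.12 in cervix. Members at few counts were limited by depth. The causes were not tested.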
